A study of Mus musculus with 6 samples.

Results

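Genes of the intermediate filament family other than keratins were followed between fetal and adult mammary cells. They are Des, Synm, Vim and Nes, which encode filaments of the cytoplasm, and Lmna, Lmnb1 and Lmnb2, which encode the nuclear lamins. These 7 genes were chosen by name, and all probes whose RefSeq accession belongs to one of them were taken, which gave 11 of the 55681 non-control probes of the array (5 for Synm and 1 for each of the other genes). RNA of freshly sorted cells was labelled with Cy3 and hybridized to one-color Agilent arrays, where a brighter spot means that more of its target was bound, with 3 biological replicates of each of 2 populations and 1 array per replicate. All mice were C57Bl6J females, with no transgene or treatment named in the labels. The fetal cells came from E18.5 (embryonic day 18.5) mammary glands and were sorted as CD31-CD45-Ter119-EpCAM++CD49f+ cells. The adult basal cells came from the glands of mice 8–12 wk old and were sorted with the same exclusion of CD31, CD45 and Ter119, with a further exclusion of BP-1, and as EpCAM+CD49f+ (the stromal marker BP-1 was gated for the adult cells alone), and the adult glands were also digested for longer. The scanner software called 76.4% to 83.3% of an array's probes well above background, and no spot was saturated.

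Intermediate filament proteins share a central coiled-coil rod and assemble into rope-like fibers, and which of them a cell makes depends on its type and stage. Vimentin is the usual filament of mesenchymal cells and of many cultured and migrating cells, desmin is the filament of muscle, and synemin and nestin are large proteins that join vimentin or desmin filaments and tie them to other structures. Basal mammary cells are largely myoepithelial, which means that they are contractile, smooth-muscle-like epithelial cells whose main filaments are keratins. Lamins form the meshwork under the inner nuclear membrane, with A-type lamins (Lmna) associated with differentiated and mechanically loaded cells and B-type lamins (Lmnb1 and Lmnb2) present in most cells.

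Of the 7 genes, Synm was far lower in the fetal cells on all of its probes and was the single gene called. The means of Lmnb1, Vim, Lmna and Lmnb2 were higher in the fetal population, by sizes that ran from over 10-fold for Lmnb1 to under 1.5-fold for Lmnb2. Des was dim in adult basal cells and not well above background in fetal cells, and the Nes values of the populations overlapped.

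The start regions of 3 genes are given because Synm was the gene called, and Des and Vim encode the filaments that synemin joins (neither of them was called). Each window is the 250 bases before the gene's first annotated base in RefSeq (GRCm38.p6), 5′ to 3′ on the gene's own strand, with matches in capitals to the TATA box (TATAAA), the CCAAT box or the GC box (GGGCGG), searched on both strands and not overlapping one another here. They are Synm at chr7:67759743-67759992 on the minus strand, Des at chr1:75360042-75360291 on the plus strand and Vim at chr2:13574061-13574310 on the plus strand.
Synm: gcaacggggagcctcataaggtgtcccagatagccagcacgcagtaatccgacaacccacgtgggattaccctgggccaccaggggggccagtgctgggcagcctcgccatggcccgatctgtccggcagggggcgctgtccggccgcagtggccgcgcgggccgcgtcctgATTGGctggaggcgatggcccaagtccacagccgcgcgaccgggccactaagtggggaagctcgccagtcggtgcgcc
Des: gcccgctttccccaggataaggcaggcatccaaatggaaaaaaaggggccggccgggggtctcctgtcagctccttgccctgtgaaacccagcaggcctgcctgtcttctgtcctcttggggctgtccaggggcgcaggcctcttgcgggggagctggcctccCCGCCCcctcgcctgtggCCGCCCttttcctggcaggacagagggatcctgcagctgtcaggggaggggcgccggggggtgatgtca
Vim: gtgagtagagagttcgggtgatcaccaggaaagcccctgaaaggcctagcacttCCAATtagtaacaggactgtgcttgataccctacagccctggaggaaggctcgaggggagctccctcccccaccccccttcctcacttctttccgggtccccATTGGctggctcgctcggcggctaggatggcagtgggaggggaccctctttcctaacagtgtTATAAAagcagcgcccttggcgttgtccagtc
The Synm window held 1 CCAAT on the opposite strand (seen as ATTGG), 78 bases upstream of the start, and its GC content of 70% with 23 CpG dinucleotides lay above the medians of 52.4% and 6 over all 32851 such windows. The Des window held 2 GGGCGG on the opposite strand (seen as CCGCCC), 87 and 69 bases upstream, with 67.2% GC and 10 CpG. The Vim window held TATAAA 32 bases upstream and CCAAT 196 and 94 bases upstream, the nearer of them on the opposite strand, with 58.4% GC and 8 CpG. Among all windows, 12.4% held TATAAA, 33.8% held CCAAT and 32.7% held GGGCGG. The CArG box, the motif of serum response factor that many smooth muscle genes carry, was in 1.47% of all windows and in none of the windows of the 6 genes found in the table. Such matches describe the letters of these windows, and binding was not measured.

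Across the array, 20440 probes matched a gene and passed a filter on low signals, which removed probes dim in both populations. A probe dim in 1 population alone entered the test through the other, so for such probes the filter was not independent of the difference. Of the 20440 probes, 2269 (11.1%) were called, that is, differed by at least 2-fold with a p of at most 0.05 in limma after Holm adjustment over all of them. The brightest probe of 6 of the 7 genes passed the filter and 1 of the 7 genes was called, beside 11.2% of the 15726 genes tested. Synm gave all 5 called probes among the 10 that passed, all lower in fetal cells, as were 5.18% of all probes tested. Some of the 5 entered the test through the adult arrays alone and are named below. By their brightest probes, so did Sync, Dtna, Myh11 and Pdgfrb among the genes reported as called below. Aurkb, Elf5 and Bub1 entered through the fetal arrays alone. All values below are quantile normalized log2 signals, differences are fetal minus adult basal, and an adjusted p without a further name is limma's with Holm adjustment over the 20440 probes. Less RNA per cell and fewer cells of a type cannot be told apart in such sorted bulk samples.

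**Figure D1:**
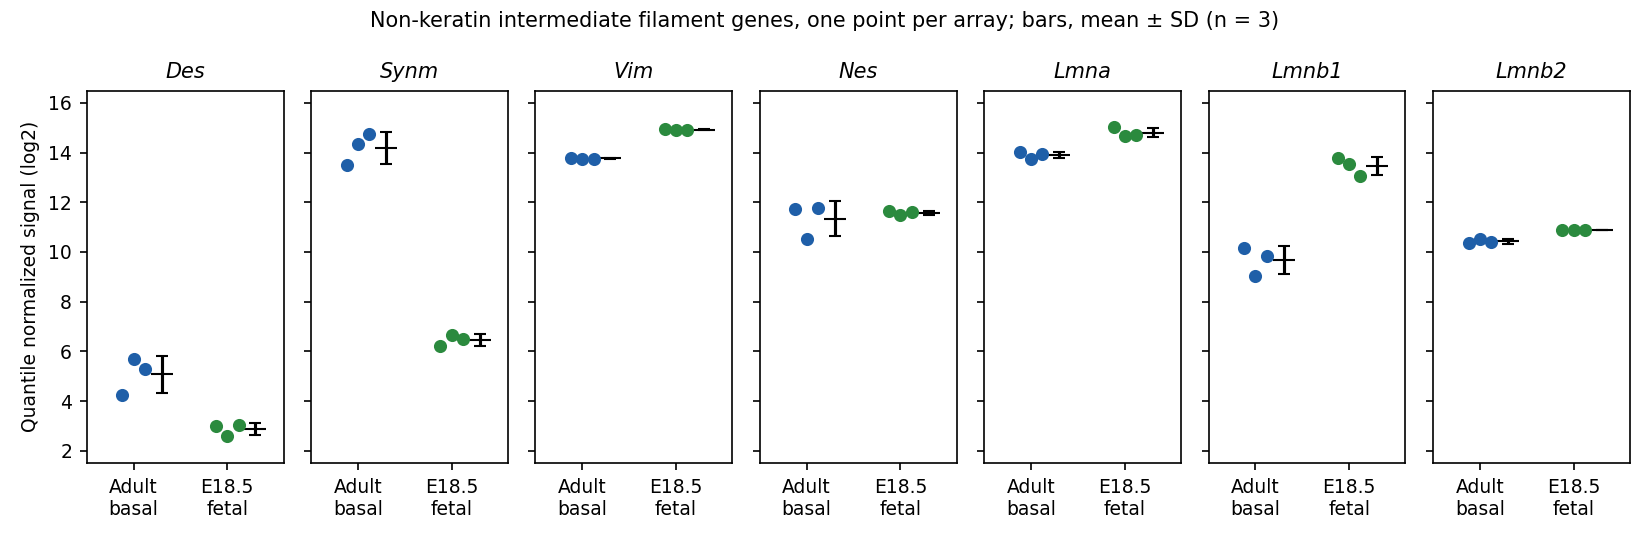
Quantile normalized log2 signal (vertical axis) of the brightest probe of each of the 7 genes, with 1 point per array for adult basal (blue) and E18.5 fetal cells (green) and bars for the mean ± SD (n = 3). The populations lie apart in every panel except that of Nes, with the largest gap for Synm (means 14.20 and 6.46).

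Synm encodes synemin, a large filament protein that cannot build filaments alone and joins desmin or vimentin filaments to dystrophin-linked and adhesion complexes. Its brightest probe (A_55_P2052696) read 13.50, 14.34 and 14.76 in adult basal replicates 1 to 3 and 6.21, 6.66 and 6.51 in fetal replicates 1 to 3. All 3 fetal arrays were far below all 3 adult arrays, and the gap between the populations, 6.84, was larger than the range within either. Synm fell by 7.74 on the log2 scale in fetal cells (SE 0.31, adjusted p = 0.00056 in limma with Holm adjustment), or 214-fold lower, from 14.20 ± 0.64 to 6.46 ± 0.23 (SD, n = 3). By size this was the 22nd of the 20440 differences. The 2 glass slides each held arrays of both populations, and within slide 1 and slide 2 the difference was -7.92 and -7.76.

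The other 4 Synm probes also fell, by different amounts. A_51_P185593 read 11.24, 11.73 and 12.33 in adult basal and 4.89, 4.88 and 5.09 in fetal cells, a difference of -6.81 (SE 0.26, adjusted p = 0.00039 in limma with Holm adjustment). A_55_P2052690 differed by -5.15 (adjusted p = 0.0055) and A_55_P2074353 by -5.13 (adjusted p = 0.0025), both in the same limma fit. The last, A_55_P2052699, is annotated to another Synm transcript than the rest. It read 9.31, 9.58 and 10.23 in adult basal cells. No fetal array had it well above background, so its signal was at least 57.4-fold lower in fetal cells (adjusted p = 0.00068 in limma with Holm adjustment), a bound on the scale of the processed signal, set by the lowest signals that were well above background. Under normexp, an alternative that takes the background off in another way, starts from the median spot intensity and adds an offset of 50, this probe was still called, but at -3.79, a smaller fold than that bound. Under it A_51_P185593 was at -5.27, A_55_P2052690 at -4.59 and A_55_P2074353 at -3.71, all called, and the brightest probe at -6.92. The probes A_51_P185593, A_55_P2074353 and A_55_P2052699 entered the test through the adult arrays alone, so the filter was not independent of their differences. Without the filter they stayed called (adjusted p = 0.0065, 0.031 and 0.011 in limma with Holm adjustment). With the brightest probe as the reference within each array, the log2 ratio of A_55_P2052690 to it was -1.64 ± 0.09 in adult basal and 0.95 ± 0.41 in fetal cells (n = 3 each), a change of 2.59 with no overlap (exact permutation test over arrays, two-sided, p = 0.10, the smallest that 3 arrays against 3 allow). The ratio of A_55_P2074353 changed by 2.61 and that of A_51_P185593 by 0.93, likewise with no overlap and an exact permutation p of 0.10. No ratio is given for A_55_P2052699, whose fetal values lay at background. The probes therefore gave 1 direction and, for these 3 against the brightest, unequal sizes, and the cause of the unequal sizes was not tested.

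**Figure D2:**
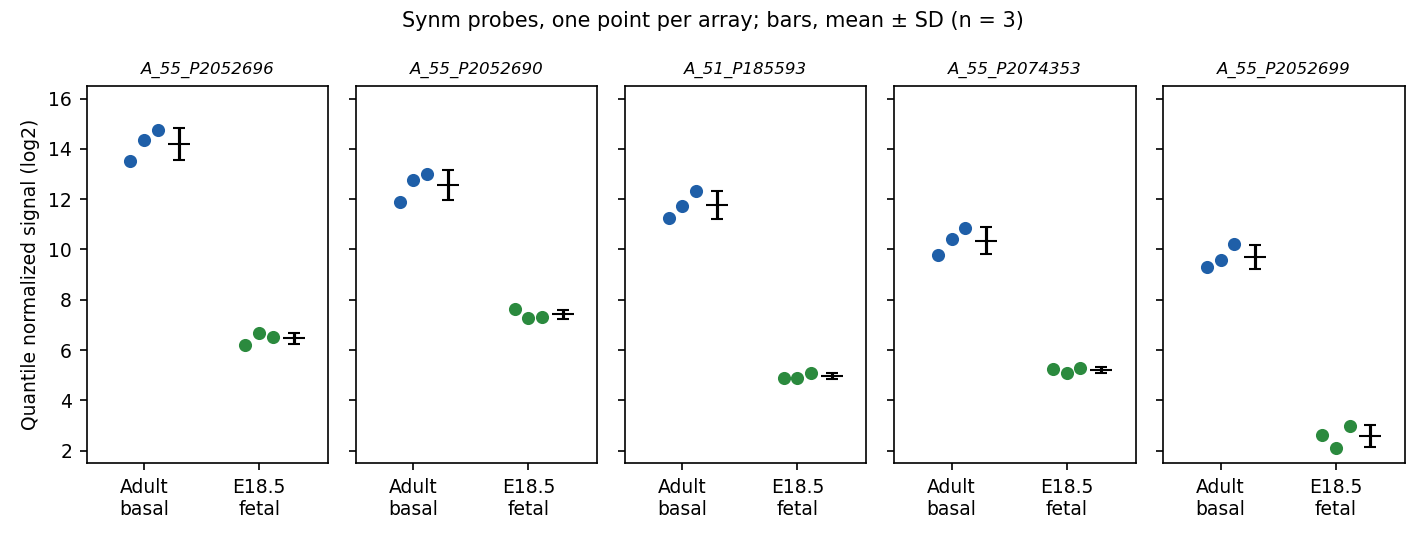
Quantile normalized log2 signal (vertical axis) of the 5 Synm probes, with 1 point per array for adult basal (blue) and E18.5 fetal cells (green) and bars for the mean ± SD (n = 3). Every fetal point lies below every adult point on each probe, and the fetal values of A_55_P2052699, between 2.11 and 2.97, were not well above background.

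Des encodes desmin, the filament of cardiac, skeletal and smooth muscle that links neighbouring myofibrils and anchors them to the membrane. Its only probe (A_51_P335969) is printed 10 times on the array and read 4.23, 5.68 and 5.30 in adult basal and 2.98, 2.59 and 3.04 in fetal cells. These levels lie under the low-signal boundary of 5.95, so Des did not enter the main test. In linear units the mean of its spots was 18.9, 42.8 and 36.2 in the adult arrays and 11.1, 7.25 and 8.26 in the fetal arrays. All 10 spots were well above background on each adult array, against 1 of 10 in fetal replicate 1 and 0 in replicates 2 and 3. The populations did not overlap, and on the scale of the processed signal Des was at least 2.31-fold lower in fetal cells. In a fit without the filter, the measured difference was -2.20 (SE 0.38, 95% interval -3.13 to -1.28, adjusted p = 1 in limma with Holm adjustment over 27222 probes, of which 4.34% were called). Under normexp the difference was -0.49, a smaller fold than the bound above, so the bound holds for the processed signal alone. Which of the steps that normexp changes moved the value was not tested.

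Vim encodes vimentin. Its probe (A_51_P392687) was bright in both populations, with readings of 13.78, 13.76 and 13.76 in adult basal and 14.93, 14.90 and 14.90 in fetal cells. Each population spanned a very narrow range, and every fetal array was higher than every adult array. The fetal mean was higher by 1.15 (SE 0.09, 95% interval 0.94 to 1.36), or 2.21-fold. This was over the 2-fold limit but missed the threshold of limma with Holm adjustment (adjusted p = 0.059), and it passed with Benjamini-Hochberg adjustment (adjusted p = 2.8e-05), as did 30.0% of all probes tested under the same fold limit, 16.0% with the higher mean in fetal cells. A difference of this size or larger was found for 26.19% of the tested probes.

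Within each array, the log2 ratio of Des to Vim was -8.70 ± 0.76 in adult basal and -12.04 ± 0.24 in fetal cells (SD, n = 3), and the populations did not overlap. The fetal values of this ratio rest on a Des signal at background, so the change, -3.35 here and -1.61 with normexp, is a description and its size is not tested.

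Nes encodes nestin, a filament protein of neural and muscle precursors and of some endothelial and myoepithelial cells, which assembles together with vimentin. Its probe (A_55_P1953728) read 11.74, 10.52 and 11.78 in adult basal and 11.64, 11.48 and 11.60 in fetal cells. Adult basal replicate 2 stood about 1 log2 unit under all other arrays, and the fetal values lay between it and the other adult replicates. The difference of the means, 11.34 ± 0.72 against 11.58 ± 0.08, was 0.23 (SE 0.32, 95% interval -0.53 to 0.99, adjusted p = 1 in limma with Holm adjustment). Without adult basal replicate 2 it was -0.18, and within slide 1 and slide 2 it was -0.12 and 1.02. No direction can be given for Nes, and the interval leaves room for a difference of nearly 2-fold toward the fetal cells.

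Lmnb1 encodes lamin B1, a lamin that stays farnesylated and bound to the inner nuclear membrane. Its probe (A_51_P120717), also printed 10 times, read 10.17, 9.04 and 9.83 in adult basal and 13.78, 13.54 and 13.05 in fetal cells. All fetal arrays were higher than all adult arrays by at least 2.88, and the spots of 1 array differed by little, with an SD between 0.03 and 0.08 over 9 or 10 spots. The means were 9.68 ± 0.58 and 13.46 ± 0.38, a difference of 3.78 (SE 0.31) or 13.7-fold, and differences of this size or larger were found for 3.81% of tested probes. With Holm adjustment in limma the adjusted p was 0.086, so Lmnb1 was not called, and with Benjamini-Hochberg adjustment it was 3.8e-05. With slide as a term in the model the difference was 4.02 and passed (adjusted p = 0.0097 in limma with Holm adjustment). Leaving out adult basal replicate 2, the lowest array, gave 3.45 and also passed (adjusted p = 0.044). Of 17 alternatives 5 called Lmnb1 and 12 did not, with an adjusted p as high as 0.94 in limma, without fetal replicate 2.

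Lmna encodes lamins A and C, which arise from 1 gene by alternative splicing. The probe (A_52_P137765) is annotated to 1 of its transcripts, and whether it separates lamin A from lamin C was not tested. It read 14.01, 13.75 and 13.95 in adult basal and 15.02, 14.69 and 14.71 in fetal cells. The populations did not overlap, with fetal replicate 1 the highest array. The difference was 0.90 (SE 0.13), or 1.87-fold, which is under the 2-fold limit (adjusted p = 1 with Holm and 0.00077 with Benjamini-Hochberg adjustment in limma).

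Lmnb2 encodes lamin B2. Its probe (A_55_P2219059) read 10.36, 10.53 and 10.39 in adult basal and 10.88, 10.87 and 10.90 in fetal cells. The fetal arrays were within 0.03 of each other and all above the adult arrays. The difference was 0.45 (SE 0.10), or 1.37-fold, with an adjusted p of 1 after Holm and 0.0047 after Benjamini-Hochberg adjustment in limma. As many as 56.13% of the tested probes differed by at least this much.

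The 3 lamin genes thus had higher fetal means by unequal amounts. Within an array the log2 ratio of Lmna to Lmnb1 was 3.84, 4.71 and 4.12 in adult basal and 1.24, 1.14 and 1.66 in fetal cells. The populations lay apart, and the mean fell by 2.88, from 4.23 ± 0.44 to 1.35 ± 0.28 (exact permutation test, two-sided, p = 0.10, the smallest possible). The ratio of Lmnb2 to Lmnb1 changed by -3.33 with no overlap (exact permutation p = 0.10). The ratio of Vim to Lmna changed by 0.24, and there the populations overlapped (exact permutation p = 0.20). Over all 7 genes, the brightest probes of 6 had populations that did not overlap, among them Des, which did not pass the filter. Of the probes that passed it, 69.1% had no overlap.

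**Figure D3:**
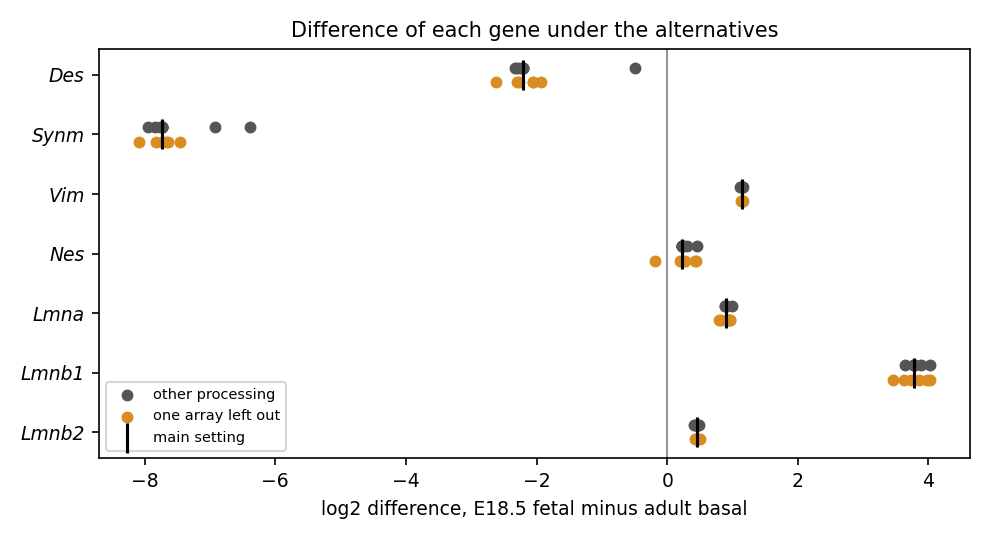
Difference of each gene on the log2 scale, fetal minus adult basal (horizontal axis), for the reported setting (black tick), for other normalizations, filters and models (grey points) and with 1 array left out (orange points). Synm stays below -6, Lmnb1 stays above 3, Nes crosses 0 without adult basal replicate 2, and Des moves to -0.49 under normexp.

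The genes whose profile over the 6 arrays lay nearest to those of the other 6 were found among 19771 probes well above background on all arrays, by the root mean square distance between profiles centered on their own mean. Nearest to Synm were Postn (periostin, a matrix protein; 0.22 log2 units), Gdf15, a secreted growth factor (0.36) and Myh11, the smooth muscle myosin heavy chain (0.51). No neighbours are given for Des, whose fetal values lay at background. Nearest to Lmnb1 were Mboat1, a lysophospholipid acyltransferase (0.15), Apod, an apolipoprotein (0.26), and Cadps2, a protein of vesicle release (0.27). Nearest to Lmna was 1 of the 3 Cdk1 probes (A_55_P2016647; 0.05), the one with the smallest difference, followed by Pxdn and Exoc4. Vim lay nearest to Gyg (glycogenin), Apoo and the histone gene H2az2, Nes to Mprip, Fxyd2 and Madcam1, and Lmnb2 to the ribosomal protein gene Rps13, Dele1 and Rpl21, all at 0.08 or less. With 6 arrays in 2 populations, a near profile needs a difference of like size.

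The other 9 non-keratin filament genes listed are typical of neurons, glia, muscle and lens. Of these, 6 passed the filter on low signals. Sync, which encodes syncoilin, a muscle filament protein that binds desmin and the dystrobrevin complex, was the only one called, beside 11.2% of all genes. It read 8.96, 9.05 and 9.31 in adult basal and 6.01, 5.91 and 5.91 in fetal cells. The populations were far apart, and Sync fell by 3.17 (SE 0.12, adjusted p = 0.00042 in limma with Holm adjustment). Its fetal mean, 5.939, lay just under the low-signal boundary of 5.949, so Sync entered the test through the adult arrays alone. The filter was thus not independent of its difference, and its call without the filter is not given here. By Benjamini-Hochberg adjustment in limma, Nefh and Bfsp1, named after their values had been seen, passed 2-fold in the other direction, as did 15.8% of all genes. Nefh is a neurofilament subunit (1.98, adjusted p = 0.00065, with only 1 adult array well above background) and Bfsp1 a lens filament gene (1.09, adjusted p = 0.00033). Both entered the test through the fetal arrays alone (means 5.97 and 6.37, against 3.995 and 5.28 in adult basal), so the filter was not independent of their differences. The median difference of the 6 genes was -0.37, beside -0.04 over all genes tested. Nefm, another neurofilament subunit, stayed at background on all arrays, and Ina, the neuronal internexin, was the brightest of the list.

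Genes for proteins that link filaments to junctions, adhesions and the dystrophin complex, together with filament chaperones, made a list of 14, all tested. In fetal cells 3 were called lower and 1 higher (backgrounds 5.21% and 6.03% of genes in these directions), and the median difference was -0.83. Dst encodes dystonin, whose epithelial form anchors keratin filaments at hemidesmosomes. It read 12.19, 12.38 and 12.53 in adult basal and 8.86, 8.53 and 8.37 in fetal cells, with no overlap. Dst fell by 3.78 (SE 0.16, adjusted p = 0.0008 in limma with Holm adjustment), and its second probe, annotated to another transcript, by 3.36. Dtna encodes dystrobrevin alpha, the dystrophin-associated partner of syncoilin. It read 7.10, 6.84 and 7.30 in adult basal and stayed at background on the fetal arrays, which makes it at least 9.3-fold lower on the scale of the processed signal (adjusted p = 0.025 in limma with Holm adjustment). Dtna entered the test through the adult arrays alone. Its call without the filter is not given here, and its bound under normexp was not tested. Tln1, which encodes the integrin adaptor talin, fell by 1.61 (adjusted p = 0.045), while a dimmer Tln1 probe with nearly the same difference, -1.68, was not called (adjusted p = 0.66 in limma with Holm adjustment). Evpl encodes envoplakin, a plakin of the outer layers of stratified epithelia. It read 9.07, 9.18 and 8.76 in adult basal and 11.59, 11.43 and 11.35 in fetal cells, and rose by 2.45 (SE 0.14, adjusted p = 0.0066 in limma with Holm adjustment). Some further linkers, named after their values had been seen, were not called. These were Plec (plectin, the general filament linker) at -0.83, Macf1 at 0.07 and Dsp (desmoplakin, the desmosomal anchor of keratin filaments) at -1.56. By Benjamini-Hochberg adjustment and 2-fold, 3 of the 14 linkers and chaperones were higher and 6 lower in fetal cells (beside 15.8% and 13.9% of all genes). Dsp was among the lower ones (adjusted p = 3.5e-05 in limma), as was Vcl (vinculin, -1.22, adjusted p = 0.0003). Nebl (2.08) and Ppl (periplakin, the partner of envoplakin, 1.72) were among the higher ones (adjusted p = 0.00013 and 0.00014 in limma). Dmd (dystrophin), named in the same way, has 3 probes. The brightest differed by -1.17 (adjusted p = 0.00029 in limma with Benjamini-Hochberg adjustment) and the next by 0.25 (adjusted p = 0.13). The third was well above background on all 3 adult arrays and on no fetal array, and was lower in fetal cells in the same fit (adjusted p = 0.00058), so the probes did not all move together.

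**Figure D4:**
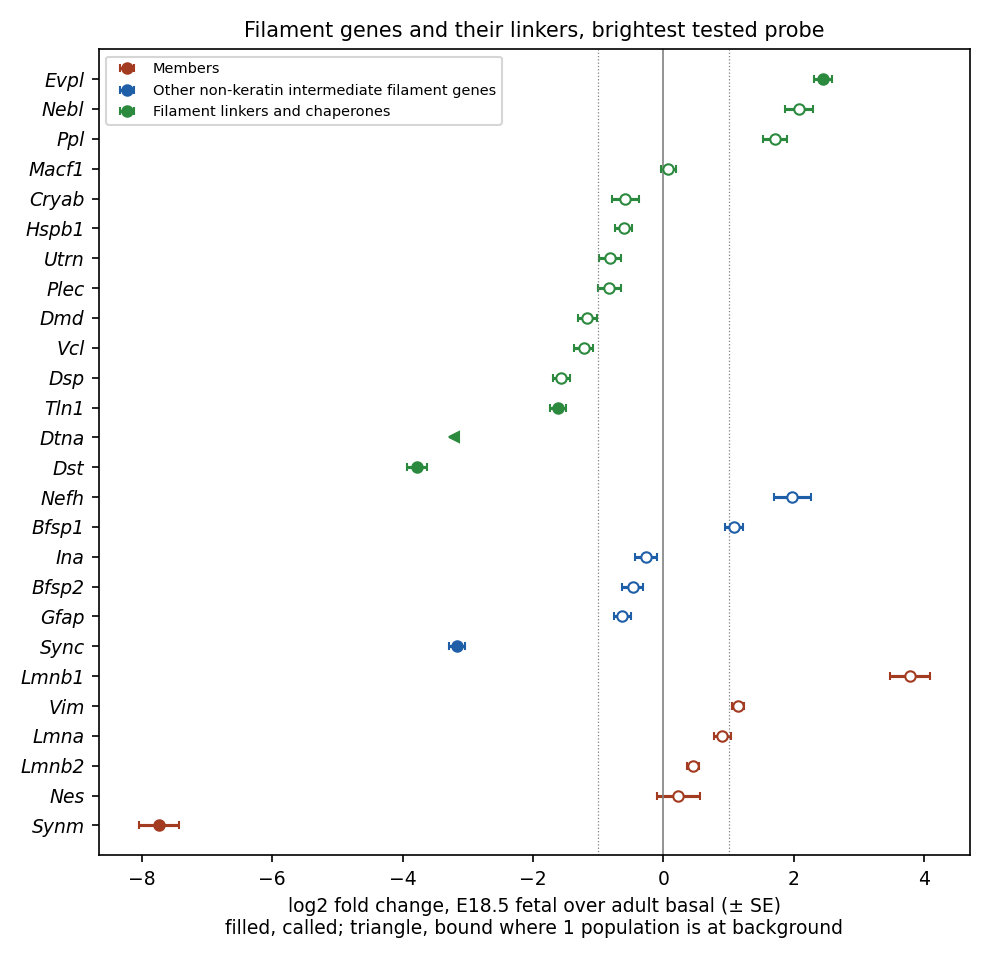
Difference on the log2 scale, fetal over adult basal, with its SE (horizontal axis) for the brightest tested probe of the 6 tested genes of the set (red), of other non-keratin filament genes (blue) and of filament linkers and chaperones (green), with filled points for called genes, a triangle at the bound of Dtna and dotted lines at 2-fold. Synm at -7.74 lies farthest left, Dst (-3.78), Sync (-3.17) and Dtna (at least 9.3-fold lower) also lie left of the other genes, and Lmnb1 (3.78) farthest right without being called.

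Filament proteins are taken apart by phosphorylation, in mitosis above all. Of 10 kinases listed for this, 9 were tested, 3 were called higher in fetal cells (beside 6.03% of all genes) and none lower, with a median difference of 1.01. Cdk1, the mitotic kinase that phosphorylates lamins, vimentin and nestin, read 5.43, 7.05 and 6.15 in adult basal and 12.88, 13.03 and 13.02 in fetal cells. It rose by 6.77 (SE 0.36, adjusted p = 0.0046 in limma with Holm adjustment), although of its other probes 1 gave 6.17 and 1, the neighbour of Lmna above, only 0.96. Aurkb (aurora B), which acts on vimentin and desmin at the cleavage furrow, stayed at background on the adult arrays and was at least 24.4-fold higher in fetal cells on the same scale as the other bounds (adjusted p = 0.00027 in the same fit). Aurkb entered the test through the fetal arrays alone. Its call without the filter is not given here, and its bound under normexp was not tested. Plk1, the polo-like kinase, rose by 4.71 (adjusted p = 0.0017). All 3 are themselves genes of dividing cells.

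For the nuclear envelope, 22 genes of lamin processing and of lamin-binding membrane proteins were all tested, with 2 called higher in fetal cells, 1 called lower (beside 6.03% and 5.21% of all genes) and a median difference of -0.17. By Benjamini-Hochberg adjustment and 2-fold in limma, 3 were higher and 4 lower (beside 15.8% and 13.9% of all genes). Lbr, the lamin B receptor that tethers chromatin to B-type lamins, read 9.62, 9.63 and 9.77 in adult basal and 11.32, 11.16 and 11.05 in fetal cells. These did not overlap, and Lbr rose by 1.505 (SE 0.11, adjusted p = 0.046 in limma with Holm adjustment). Tor1aip1, which encodes the lamin-binding protein LAP1, fell by 1.44 (SE 0.10, adjusted p = 0.026 in the same fit). Tor1aip2, named after its values had been seen, was not called on its brightest probe (-1.305). A dimmer Tor1aip2 probe was called lower (-1.72, adjusted p = 0.038 in the same fit). Syne1, which encodes the outer membrane linker nesprin 1, rose by 3.09 on its brightest probe (adjusted p = 0.031). A second Syne1 probe, annotated to another transcript, differed by -1.43 (adjusted p = 0.19), so the gene has no single direction on this array.

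**Figure D5:**
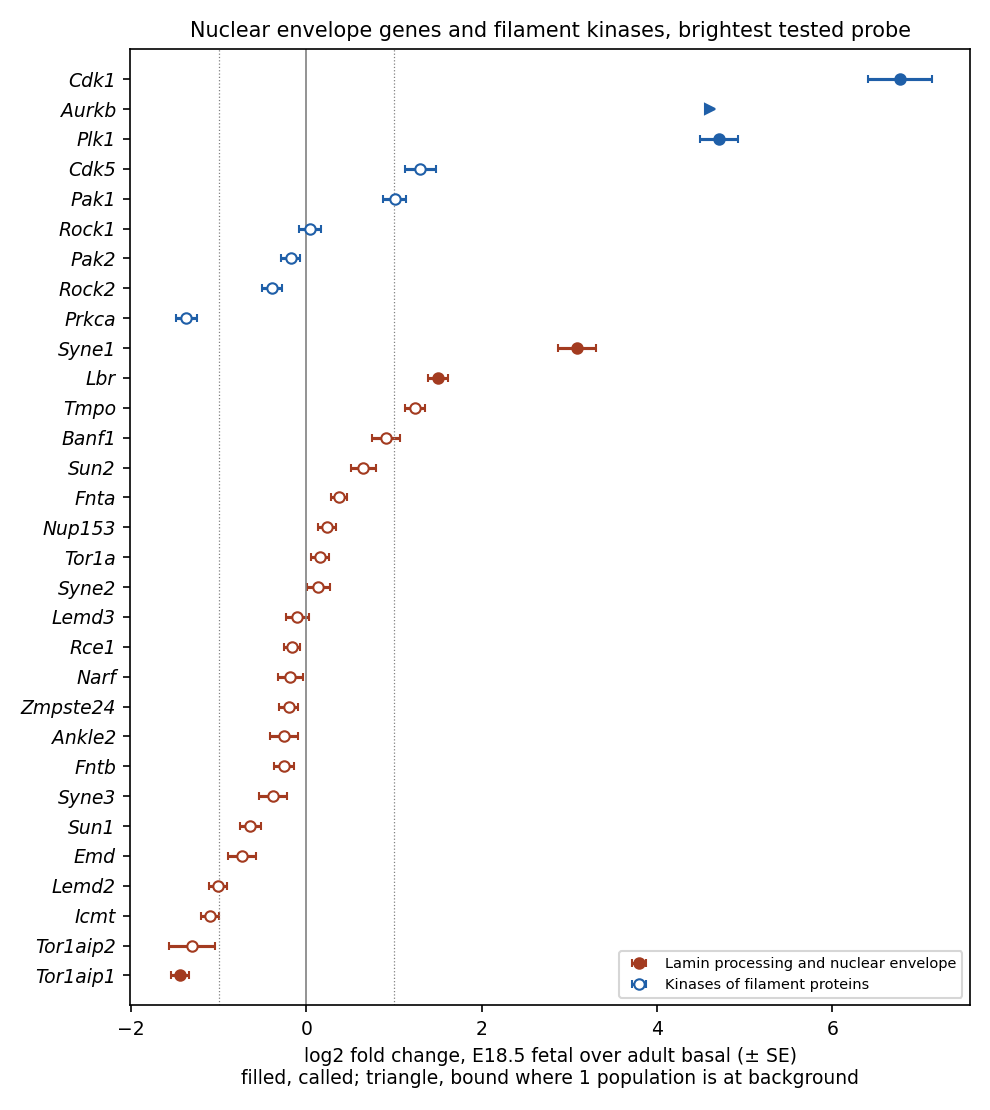
Difference on the log2 scale, fetal over adult basal, with its SE (horizontal axis) for the brightest tested probe of 9 kinases of filament proteins (blue) and 22 genes of lamin processing and the nuclear envelope (red), with filled points for called genes, a triangle at the bound of Aurkb and dotted lines at 2-fold. Cdk1 (6.77), Plk1 (4.71) and Aurkb (at least 24.4-fold higher) stand apart, while the envelope genes spread to both sides of 0.

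Markers of basal and luminal mammary cells and of dividing cells moved with the same comparison. Of 12 basal markers, 9 were called lower in fetal cells (beside 5.21% of all genes) and none higher, with a median difference of -3.93. The largest were in Myh11 (-8.63), Cnn1 (calponin, -6.00), Tagln (transgelin, -4.88) and Mylk (myosin light chain kinase, -4.50), all of smooth muscle contraction. The summed linear signal of the 12 genes was 1354136, 1297616 and 1306863 in adult basal and 119989, 111746 and 98505 in fetal cells, with Acta2, the smooth muscle actin, the brightest. Trp63, the p63 gene of basal cells, named after its values had been seen, was split, with -0.08 on its brightest probe and -3.06 on its other. Of 13 luminal markers, 6 were called higher in fetal cells (beside 6.03% of all genes) and none lower, with a median of 0.57. The largest were in Elf5 (7.55), Foxa1 (6.46), Kit (4.003) and Cldn4 (2.65). Others differed the other way, and 3 of the 13, named after their values had been seen, were lower in fetal cells past 2-fold with Benjamini-Hochberg adjustment in limma, as were 13.9% of all genes. These were Esr1, the estrogen receptor gene (-3.58, an uncertain size since only 1 fetal array had it well above background), and the keratin genes Krt7 (-1.29) and Krt19 (-1.22). The luminal sums were 129954, 124049 and 123334 in adult basal and 202629, 207263 and 162539 in fetal cells, with Krt18 the brightest. Of 14 proliferation genes, 12 were called higher in fetal cells (beside the same 6.03%) and none lower, with a median of 5.48. Among the largest were Bub1 (6.92, with adult basal replicate 1 not well above background, so that its size is uncertain), Birc5 (6.20), Mki67 (5.98) and Ccnb1 (5.82), and the sums were 18784, 19002 and 18737 against 170139, 181841 and 184286, with Pcna the brightest. Adult basal replicate 2, the lowest array for Lmnb1 and Nes, read 9.60 for Mki67, the highest of the adult replicates (7.60 and 8.83 in replicates 1 and 3). Mki67 was picked for this after its values had been seen. For Mcm3, Mcm5 and Pcna, replicate 2 was instead the lowest adult array, so the proliferation genes gave no single order of the adult replicates. The part of these mixtures and of cell division in the differences of Synm and Lmnb1 was not tested.

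Several filament genes are also abundant in cells that the gates were meant to remove. Of 9 fibroblast markers, 8 were tested and 1 was called lower in fetal cells (beside 5.21% of all genes). This was the matrix proteoglycan Dcn at -3.78, and the median was -0.93. By Benjamini-Hochberg adjustment and 2-fold in limma, 3 were lower and none higher (beside 13.9% and 15.8% of all genes). The lower ones were Dcn and, named after their values had been seen, Thy1 (-1.62) and Lum (-1.05). The summed signal was 17551, 21503 and 28115 in adult basal and 6275, 6466 and 7924 in fetal cells. Dcn was the brightest on the adult and Col1a2 on the fetal arrays, and no gene was at background throughout. Of 9 pericyte and vascular smooth muscle markers, 8 were tested. Pdgfrb, the platelet-derived growth factor receptor of pericytes, was called lower at -4.34 and Notch3 higher at 4.70 (beside 5.21% and 6.03% of all genes). The median was -0.65. By Benjamini-Hochberg adjustment and 2-fold in limma, 3 were lower and 1 higher. Besides Pdgfrb the lower ones, named after their values had been seen, were Rgs5 (-2.22) and Ndufa4l2 (-1.59). The sums of this list were 87919, 93734 and 89044 in adult basal and 54179, 50928 and 50885 in fetal cells. Mcam was the brightest and Kcnj8 was not above background on any array. Of 11 skeletal muscle markers, 6 were tested. Acta1, the skeletal muscle actin, was called lower at -4.68 (beside 5.21% of all genes) and was the brightest. The sum was 21838, 24180 and 21782 in adult basal against 1799, 1847 and 1690 in fetal cells. The median was -0.19, and Myf5, Myh4 and Ttn were not above background on any array.

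Of 7 endothelial markers, 5 were tested and none was called, with a median of -1.40. Cdh5 (-2.70), Emcn (-1.79) and Cldn5 (-1.40), named after their values had been seen, were lower in fetal cells past 2-fold with Benjamini-Hochberg adjustment, as were 13.9% of all genes. The endothelial sums were 12905, 13843 and 11309 in adult basal and 12278, 10842 and 12618 in fetal cells, with Kdr the brightest. Leukocyte markers had 6 of 7 genes matched on the array, none called, and a median of -0.06. Lyz2, the lysozyme gene of myeloid cells, named after its values had been seen, was lower in fetal cells by Benjamini-Hochberg adjustment (-1.76, adjusted p = 0.025 in limma). Past 2-fold, so were 13.9% of all genes. The leukocyte sums were 14374, 15865 and 16051 in adult basal and 16737, 12985 and 14764 in fetal cells, with Csf1r the brightest. Of 8 Schwann and neural markers, 6 were tested and none was called, with a median of 0.05. S100b, named after its values had been seen, was higher in fetal cells by 3.599 and passed 2-fold with Benjamini-Hochberg adjustment in limma (adjusted p = 0.00038), as did 15.8% of all genes in that direction, although only 1 adult array had it well above background. The sums were 15022, 10465 and 11864 in adult basal and 12242, 12951 and 15609 in fetal cells. Sox10, which mammary epithelial cells also make, was the brightest, and Foxd3 and Sox2 were not above background on any array. The sums weigh bright genes most and need not follow the others of a list. Over all genes tested the median difference was -0.04, with quartiles at -0.50 and 0.57. Counted by gene, the fetal mean was lower for all 8 tested fibroblast markers, 7 of 8 pericyte, 5 of 6 skeletal muscle, all 5 endothelial, 5 of 6 leukocyte and 2 of 6 Schwann and neural markers, in most cases without a call. The part of such cells in the values of Synm, Des and Vim was not tested.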

How the data were processed

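Sorted cells of 2 populations, 3 samples of each by their labels, were measured on one-color Agilent arrays. The labels name a T7-primed low-input labelling kit, and the methods another kit. The authors deposited linear spot intensity values from Feature Extraction 11.0.1.1, background-subtracted within each array and not normalized between arrays, and a table of log2 values that they quantile normalized. That table was used as an alternative only, and each of its columns correlated with its own array's scanner values at 0.971 or more.

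Here control spots and spots marked as outliers (104 to 326 per array) were left out, log2 processed signals were averaged per probe and quantile normalized, and 27235 probes were matched to 20660 genes by accession through a RefSeq table. The array design names mm9, and sequences come from RefSeq's GRCm38.p6 promoter table. No protein sequences were used here. Probes in the lowest of 3 k-means clusters (100 starts, seed 1; boundary at 5.949) in both populations were removed. The linear model of limma 3.58.1 (lmFit, then eBayes; R 4.3.3) gave the differences, and tables and plots were made in Python 3.11.15 with pandas 2.3.3, numpy 2.4.6 and matplotlib 3.10.9. The fit was tested on simulated data. Within-array ratios were compared by exact permutation tests. The arrays, 3 per population, limit the precision.

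The 7 genes and all lists were chosen with earlier results of these data known. Named were all members with every probe, up to 4 called genes of each list in each direction by size, the brightest gene and those at background in lists of other cell types, and 3 nearest profiles per member except Des, which lay at background in fetal cells. The main value of a gene is its brightest probe over the 6 arrays. The labels do not say whether replicate numbers mark shared animals or days, and deviations from the population means of same-numbered arrays correlated at -0.032, 0.093 and 0.049, so the numbers were not taken as pairs. Alternatives were the 75th percentile, the deposited values, normexp (offset 50, on median spot intensity), no low-signal filter, a filter on background calls, all probes, Benjamini-Hochberg adjustment, a trended robust variance, slide or replicate number as a block, the mean of a gene's probes and each array left out.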

Additional observations from a re-analysis of the deposited data

How the results depend on the processing

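Synm was called lower in fetal cells under all 17 alternatives (-8.09 to -6.39). Its probe A_55_P2052690 was not called without the filter (adjusted p = 0.062) or without any 1 fetal array (adjusted p = 0.079 to 0.09, limma with Holm adjustment), nor was A_55_P2074353 without fetal replicate 1 (adjusted p = 0.056). Under normexp the Synm probes A_51_P185593, A_55_P2074353 and A_55_P2052699 stayed called at -5.27, -3.71 and -3.79. Lmna (0.79 to 1.00) and Lmnb2 (0.41 to 0.50) kept their direction and stayed uncalled. Vim kept its difference (1.11 to 1.16) and was called, at 1.15, with Benjamini-Hochberg adjustment, a trended robust variance (adjusted p = 0.0031 in limma) and the mean of probes, which runs fewer tests (adjusted p = 0.039). Lmnb1 was called with the 75th percentile (3.77, adjusted p = 0.036), normexp (3.63, adjusted p = 0.0064), Benjamini-Hochberg adjustment (3.78), slide as a block (4.02) and without adult basal replicate 2 (3.45, adjusted p = 0.044, limma with Holm adjustment). The other 12 alternatives left it uncalled (up to adjusted p = 0.94 in limma), and it ranged from 3.45 to 4.03 when 1 array was left out. Nes reversed to -0.18 without adult basal replicate 2 and otherwise reached 0.45. Under normexp Des moved to -0.49 and the Des to Vim ratio to -1.61. When 1 array was left out, these ran from -2.62 to -1.93 and from -3.78 to -3.07, and the Lmna to Lmnb1 ratio from -3.06 to -2.63. The cause of these changes was not tested. For Des, settings that keep the filter gave no test.

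Over all probes, 2269 calls became 1181 without the filter, 6130 with Benjamini-Hochberg adjustment and 949 to 1950 with 1 array left out (lowest without fetal replicate 1). With replicate number as a block there were 1302 calls, with Synm at -7.74 (adjusted p = 0.00046), Lmnb1 at 3.78 (adjusted p = 0.11) and Vim at 1.15 (adjusted p = 1, limma with Holm adjustment), and no call among the 7 genes changed.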

Other observations

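Probes of 1 gene did not always move together among the listed genes. The examples here were chosen after their values had been seen. The luminal transcription factor gene Ehf differed by 2.32 on its brightest probe and by 7.60 on another, both called. Prlr, the prolactin receptor, differed by -0.35 on its brightest probe and by 1.85 on another (adjusted p = 0.026 in limma with Holm adjustment), and Mcam by -0.98 and 0.18, neither called.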
